A study of Mus musculus with 6 samples.

Results

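Baseline gene expression was described in the untreated plates of a mouse pancreatic carcinoma culture. The plates were the 3 of 6 samples whose agent label was "no DAC", DAC being the demethylating drug decitabine, and the other 3 samples were not analysed here. Genes were ranked by their mean array signal among those with a probe detected on each of the 3 plates (detection p under 0.05 per plate), which held for 12666 of 28902 genes on the array, or 43.8%. A further 7.78% were detected in part, on 1 or 2 plates or through different probes, and 48.4% had no probe detected on any plate. Among the 19955 genes with a current RefSeq symbol 10365 were detected on all 3 plates, a larger share than over all genes.

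The cells are labelled as PDAC (pancreatic ductal adenocarcinoma) epithelial cells and came from an explant, kept briefly in culture, of the tumor of a mouse of the KPC-Brca1 genotype. No age, sex or strain is labelled. RNA of each plate was hybridised as biotin-labelled cRNA to an Illumina bead array. The plates are labelled as replicates of a single explant culture, so their spread may be technical and says nothing of other tumours or mice. They show cells in culture and not the tumor in contact with stroma, vessels and immune cells. Whether cells of these kinds were carried over into the culture was not tested.

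Pancreatic ductal adenocarcinoma is an epithelial cancer in which the Ras-ERK pathway is usually active and in which loss of p53 function is frequent. In the field, the alleles of KPC mice include a mutant Trp53 that Cre recombinase switches on in pancreatic cells. The product of Brca1 repairs double-strand DNA breaks by homologous recombination. The labels do not name the alleles, and the deposited table does not say where in a transcript a probe lies, so normal and altered alleles could not be told apart. Ductal and acinar cells are the main exocrine cells of the pancreas, and carcinoma cells usually keep keratins of simple epithelia and lose the digestive enzymes of acini.

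Each plate had 1 array of 45281 probes. The mean signal was 460.0, 333.5 and 340.4 on replicates 1, 2 and 3, and 43.9%, 47.0% and 47.4% of probes were detected. Replicate 1 stood apart. Over the 12666 genes the normalised log2 signals of replicates 2 and 3 differed by a median of 0.087, against 0.27 and 0.296 for replicate 1 against each of them. No gene lay at least 2-fold apart between replicates 2 and 3 (0.0%), whereas 290 (2.29%) did between replicates 1 and 2 and 319 (2.52%) between replicates 1 and 3, or 151 and 162 with an offset of 50 in place of 16 in the normalisation. Relative to the noise among beads, the median squared difference between replicates 2 and 3 was 1.69 times that of repeated readings, against 20.28 and 23.83 for the pairs with replicate 1. The pair was counted as 2 samples, as labelled, but whether replicates 2 and 3 were separate plates or repeated arrays of the same RNA cannot be told apart from these values, so n = 3 below counts arrays. For most genes the SD is set mainly by the distance of replicate 1 from the other plates, with exceptions such as Brca1 and B2m.

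Values below are the deposited signals in arbitrary units on replicates 1, 2 and 3 in that order. They are followed, where given, by the mean normalised log2 signal with its SD over 3 plates. The deposited signals were not scaled between plates, so replicate 1, with the highest mean signal, is often the highest plate. The signal percentile is the share of the 12666 detected genes that a gene equals or exceeds. Brightness depends on the probe as well as on the RNA. Among 4286 detected genes with several detected probes, the brightest probe was a median of 2.57 times as bright as the dimmest. The ranks are therefore ranks of probe signal and not of transcript number.

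Genes of protein synthesis and of the cytoskeleton held the brightest probes. Of the 25 brightest genes with a current symbol, 12 encode cytosolic ribosomal proteins, and the translation elongation factor gene Eef1a1, the ubiquitin gene Ubb, the actin gene Actb, the tubulin gene Tuba1b and the actin-binding thymosin genes Tmsb10 and Tmsb4x were among them. The brightest of them was S100a11, which encodes a calcium-binding protein of the S100 family, at 25428, 23122 and 23832 (normalised log2 signal 14.54 ± 0.06, SD, n = 3). Rps2, of the small ribosomal subunit, gave 24451, 23124 and 21398. The cell surface antigen gene Ly6a, also called Sca-1, gave 24772, 20563 and 20414, and the ferritin heavy chain gene Fth1, whose product stores iron, gave 24844, 21036 and 19817. The SD of the normalised log2 signal was 0.04 to 0.06 for these 4 genes. Mean signals ran from 24127 for the first to 18515 for the last of the 25. Neighbours in this order differed by less than the larger of their SDs of deposited signal in each of the 24 pairs. These SDs include the brightness of replicate 1 that the genes share, and genes were not compared within each plate. The order of neighbours is therefore left undecided. Signals of ribosomal protein genes, and of the predicted genes Gm9294 and Gm7105 among the 25, are uncertain because near-identical copies of such sequences can bind the same probe. Of the 50 brightest names on the array, 25 had no current symbol, and 7 of these were named as mitochondrial DNA.

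The machinery lists followed the same pattern. Of 66 cytosolic ribosomal protein genes 59 were detected, with a median percentile of 98.9, where 50 is by construction that of all detected genes. Of 65 translation factor genes 54 were detected (median percentile 85.2), and of 39 proteasome subunit genes 33 (90.4). Some genes of basic cell functions were nevertheless absent from the detected set. No probe of the proteasome subunit gene Psma1, the ribosomal protein gene Rpl6 or the chaperone gene Canx was detected on any plate. A gene that is not detected is thus not shown to be silent. Genes with 1 probe on the array were detected in 32.8% of cases and genes with several probes in 65.5%.

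The promoter windows of 7 genes are printed beside the genes, as examples of detected and undetected genes with few and with many CG dinucleotides, the target of DNA methylation. Each window holds 250 bases before and 50 bases after the RefSeq transcript start, in the direction of transcription, from the RefSeq table of build GRCm38.p6, with every CG in capitals. The window of Rps2 (chr17:24719813-24720112, plus strand) holds 34 CG and is shown as that of a very bright gene.
Rps2: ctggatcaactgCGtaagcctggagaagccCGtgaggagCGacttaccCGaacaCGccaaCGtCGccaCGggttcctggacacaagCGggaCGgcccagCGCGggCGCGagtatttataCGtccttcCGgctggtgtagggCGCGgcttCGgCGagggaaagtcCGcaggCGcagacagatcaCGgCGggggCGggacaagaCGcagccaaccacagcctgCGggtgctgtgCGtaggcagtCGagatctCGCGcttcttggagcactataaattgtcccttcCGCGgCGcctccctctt

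Keratins of simple epithelia were among the brightest cell type genes. Keratins are paired filament proteins, and Krt8 and Krt18 form the main pair of simple epithelium. All 6 simple keratin genes listed were detected, with a median percentile of 94.8. Krt18 gave 12666, 11022 and 11094 (13.51 ± 0.17, SD, n = 3) and Krt8 gave 11410.2, 10269.6 and 10311 (13.37 ± 0.21, SD, n = 3). Both lay high, at percentiles 98.8 and 98.7. Replicate 1 was the highest plate for both in deposited signal but the lowest on the normalised scale. There it differed from the mean of the others by -0.29 for Krt18 and -0.36 for Krt8. Krt19, typical of pancreatic ducts, gave 6584, 4756 and 4728, and Krt7, its usual companion there, gave 2374, 1786 and 1840.2. The SD of normalised log2 signal was 0.07 for Krt19 and 0.12 for Krt7, below the median SD of 0.18 over all detected genes. Krt23 and Krt20 were also detected, at percentiles 93 and 74.

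Keratins of stratified epithelium were mostly not detected. Of 11 such genes 2 were detected on all 3 plates, Krt10 at 1082, 481 and 463 and Krt13 at 254, 180.2 and 186, a share of 18.2% against 43.8% of all genes. No probe of Krt5, Krt14, Krt15 or Krt17, keratins of basal and stressed epithelium, was detected on any plate. The windows of the pair Krt8 (chr15:102004293-102004592, minus strand) and Krt18 (chr15:102027966-102028265, plus strand) are shown because these neighbouring genes of like signal differ in CG content, with 6 and 17.
Krt8: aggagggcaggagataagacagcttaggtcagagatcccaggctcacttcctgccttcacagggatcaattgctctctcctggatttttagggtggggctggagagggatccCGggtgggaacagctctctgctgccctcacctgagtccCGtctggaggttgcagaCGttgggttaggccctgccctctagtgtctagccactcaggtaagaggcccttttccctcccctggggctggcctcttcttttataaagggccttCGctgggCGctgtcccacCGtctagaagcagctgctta
Krt18: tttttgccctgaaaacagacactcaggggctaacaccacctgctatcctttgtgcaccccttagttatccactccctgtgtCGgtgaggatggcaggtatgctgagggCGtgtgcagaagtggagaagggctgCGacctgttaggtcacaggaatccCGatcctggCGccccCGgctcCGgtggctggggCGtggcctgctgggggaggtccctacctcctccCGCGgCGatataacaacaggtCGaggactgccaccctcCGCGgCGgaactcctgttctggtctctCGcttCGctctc

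Genes of epithelial junctions and identity were detected in 21 of 38 cases, or 55.3%, with a median percentile of 49.5, close to that of all detected genes. The adherens junction gene Cdh1 (E-cadherin) gave 1589, 978 and 1029 (10.17 ± 0.07, SD, n = 3). The claudin genes Cldn6 and Cldn3, which encode tight junction proteins, gave 2648, 1405 and 1555 for Cldn6 and 1851, 1233 and 1237 for Cldn3. These signals lay at percentiles 80.2 to 87.4, with Cdh1 at 72.0 by the mean over its detected probes. The desmosome genes Dsp and Jup were dim, at 125, 107 and 98 for Dsp and 97, 75.2 and 83.3 for Jup. Epcam, a surface marker of most epithelia, was not detected on any plate (49.6, 41.9 and 45.4), and neither were Cldn1, the splicing factor gene Esrp1, Ehf, Rab25, St14 and Perp. Grhl2, a transcription factor of epithelial identity, was detected on 2 of 3 plates at 70.9, 52.5 and 60.4. The array held 1 probe for Epcam, so its absence rests on that probe.

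Duct genes were detected more often. Of 13 on the array 11 were detected, with a median percentile of 83.3. Spp1, the gene of the secreted matrix protein osteopontin, gave 18923, 17291 and 16112 (14.07 ± 0.10, SD, n = 3). Sox9, the transcription factor that maintains duct cells, gave 6597, 4309.7 and 4601 (12.33 ± 0.03, SD, n = 3), and the tetraspanin gene Tspan8 gave 7354, 3899.8 and 4056. Replicate 1 was the highest of the 3 plates in deposited signal for each of these, as it was in mean signal. The mucin gene Muc1, the RNA-binding protein gene Bicc1 and the water channel gene Aqp5 followed at percentiles 89.3, 87.9 and 83.3, while the chloride channel gene Cftr was at 25.9. Prom1 was not detected on any plate and Pkhd1 was detected in part.

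Transcription factors of pancreas and foregut were detected in 12 of 15 cases, with a median percentile of 63.4. Gata6 gave 2349, 1335 and 1270.2, Klf5 gave 1687, 1115 and 1124, and Pdx1, which specifies the pancreas in the embryo, gave 890.5, 884 and 864 (9.75 ± 0.28, SD, n = 3). Its deposited signals were nearly equal on the 3 plates, so that on the normalised scale replicate 1 was lower than the mean of the others, with a difference of -0.49. Foxa1, Hnf4a and Foxa2, factors of foregut endoderm, lay at percentiles 68.2, 59.5 and 50.3. Prox1 was not detected on any plate. Of 19 mucin, trefoil and gastric genes 10 were detected (52.6%), against 43.8% of all genes and 10365 of 19955 genes with a current symbol. They were mostly dim, with a median percentile of 24.8. The aspartic protease gene Ctse (2118, 1872 and 1699) and the trefoil gene Tff2 (913, 476 and 497) were, after Muc1, the brightest of them, and Muc5ac, a gastric mucin gene, gave 116, 101 and 101.

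Acinar and islet genes were largely not detected, whereas 43.8% of all genes on the array were detected. Of 28 acinar genes 4 (14.3%) were detected on all 3 plates, and 22 on none, among them the procarboxypeptidase gene Cpa1 (49, 44.5 and 46.4), the amylase gene Amy2a5 (45.4, 40.1 and 40.7) and Ptf1a (53.7, 48.2 and 46.5), the transcription factor that defines acinar cells. The exception in signal was the elastase gene Cela1, at 740.4, 455 and 459.8 (8.99 ± 0.15, SD, n = 3), whereas Bhlha15, Ctrl and Amy1 lay at percentiles 31, 3.9 and 2.4. Of 26 islet genes 2 (7.69%) were detected. The neuroendocrine transcription factor gene Insm1 gave 475, 246 and 288, and Nkx6-1 gave 77.8, 66.5 and 65, near the lowest detected signals. The insulin gene Ins2 was not detected (52.2, 44.2 and 48.2) and Ins1 was detected on 1 plate (66.9, 60.0 and 53.8). The windows of Cpa1 (chr6:30638968-30639267, plus strand) and Ptf1a (chr2:19445413-19445712, plus strand) hold 2 and 23 CG. Few CG were usual in the acinar list, with a median of 3 over 21 genes with a single window, and Ptf1a was 1 of 2 that held at least 15.
Cpa1: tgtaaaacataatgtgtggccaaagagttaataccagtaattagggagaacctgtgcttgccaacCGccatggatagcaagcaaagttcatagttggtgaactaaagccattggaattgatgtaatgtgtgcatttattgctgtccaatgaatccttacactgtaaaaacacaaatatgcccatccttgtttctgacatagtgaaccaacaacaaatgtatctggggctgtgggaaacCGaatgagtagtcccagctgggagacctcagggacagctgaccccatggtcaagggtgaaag
Ptf1a: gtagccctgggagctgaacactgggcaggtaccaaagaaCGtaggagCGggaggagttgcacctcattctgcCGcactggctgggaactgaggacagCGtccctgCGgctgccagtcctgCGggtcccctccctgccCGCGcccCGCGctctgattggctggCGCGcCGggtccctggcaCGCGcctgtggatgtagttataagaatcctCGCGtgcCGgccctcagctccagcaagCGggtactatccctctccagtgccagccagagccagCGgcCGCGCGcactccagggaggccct

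**Figure D1:**
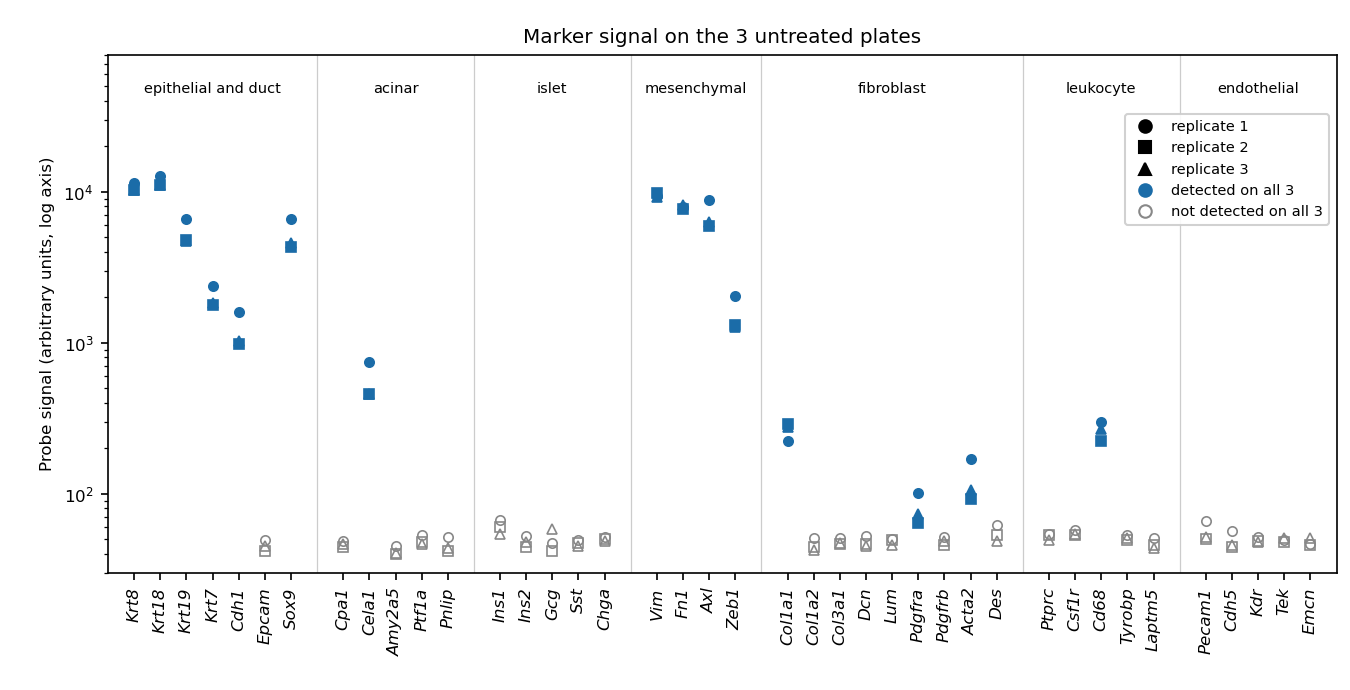
Deposited probe signal (vertical, arbitrary units, log axis) of cell type marker genes (horizontal) on the 3 untreated plates, 1 symbol per plate, filled where the gene was detected on all 3. Keratins, Sox9, Vim, Fn1 and Axl sit well above the undetected acinar, islet, leukocyte and endothelial markers, which lie between about 40 and 70.

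Genes of mesenchymal transition were detected beside the keratins. Of 24 genes 20 were detected, with a median percentile of 80.5, and 7 lay at or above percentile 90. The intermediate filament gene Vim gave 9328, 9745 and 9177 (13.20 ± 0.32, SD, n = 3), the fibronectin gene Fn1 gave 7923, 7682 and 8098 (12.96 ± 0.32, SD, n = 3), and the receptor tyrosine kinase gene Axl gave 8752, 5949.8 and 6317. Fn1 and Vim had nearly equal deposited signals on the 3 plates, so that on the normalised scale replicate 1 minus the mean of the others was -0.55 and -0.54, against a median of 0.11 over all detected genes. The repressors of Cdh1 were detected, with Zeb1 at 2047, 1306 and 1269, Twist1 at percentile 68.5 and Snai2 at 48.4, and Snai1 in part. Cdh2, the gene of N-cadherin, and Lox, a collagen cross-linking enzyme gene, were not detected on any plate. These were bulk samples, in which fewer cells of a type and less RNA per cell cannot be told apart, and whether the same cells carried keratins and Vim was not measured.

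Defining markers of other cell types were mostly at background. Summed signals here are of deposited signals over all markers of a type, undetected ones included. Of 8 markers of pancreatic carcinoma epithelium 7 were detected on all 3 plates, the exception being Epcam. The summed signal of the 8 was 41679, 33551 and 34050.1. Of 9 fibroblast and stellate cell markers 3 were detected (Col1a1, Pdgfra and Acta2), and Col1a2, Col3a1, Dcn, Lum, Pdgfrb and Des were not. The summed signal of the 9 was 811.9, 730.9 and 731.9. Of 7 leukocyte markers only Cd68 was detected, and Ptprc (CD45), Csf1r, Tyrobp, Laptm5 and Cd3e were among those that were not. None of 5 endothelial markers was detected, and their undetected probes still summed to 269.4, 236.9 and 247.4. Of 5 islet markers 0 were detected on all 3 plates.

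The longer lists gave single exceptions. Of 20 fibroblast, stellate and pericyte genes 6 were detected, the brightest being the collagen gene Col5a1 at 1784, 958 and 930.0, then Col1a1 at 222, 289 and 275 and the smooth muscle actin gene Acta2 at 171, 92.5 and 106. Of 23 leukocyte genes 4 were detected. Cd14, a receptor for bacterial lipopolysaccharide, gave 1821, 1199.8 and 1217 (10.42 ± 0.03, SD, n = 3), far above Cd68 (297, 224 and 267) and Fcgr3 (139.9, 109.5 and 105). Of 13 endothelial genes 4 were detected, and Flt1, which encodes a receptor for vascular endothelial growth factor, gave 3238, 2768 and 3044 while Pecam1 was not detected (65.8, 50.3 and 51.5). Of 15 hepatocyte genes 2 were detected, Apob at 223, 179.6 and 182 and Ttr at 137, 99.7 and 109.7. Serum albumin, the main liver product, was not detected (47.1, 44.8 and 41.6), and the window of its gene Alb (chr5:90460620-90460919, plus strand) holds 3 CG and stands here for a tissue gene outside its tissue.
Alb: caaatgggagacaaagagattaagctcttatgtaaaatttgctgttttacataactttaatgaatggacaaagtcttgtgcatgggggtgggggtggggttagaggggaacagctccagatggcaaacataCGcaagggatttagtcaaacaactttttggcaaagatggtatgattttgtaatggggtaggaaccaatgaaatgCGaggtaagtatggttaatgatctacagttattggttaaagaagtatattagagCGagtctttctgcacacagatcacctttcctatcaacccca

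The genes Trp53 and Brca1 of the model were both detected at a detection p under 0.05, and Brca1 was not at a detection p under 0.01. Trp53 lay at percentile 45.1, with 308, 249 and 239.5 (7.86 ± 0.07, SD, n = 3). Brca1 was dim, at 81.8, 74.2 and 64.2 (5.30 ± 0.25, SD, n = 3), percentile 7.5, or 11.6 without replicate 1. The array held 2 probes for Brca1 and only 1 was detected on all 3 plates, so its detection rests on that probe. The lowest mean signal of any gene detected on all 3 plates was 62, so Brca1 lay near the limit of detection, and the labels do not say how the gene was altered in these mice.

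The Ras-ERK pathway was detected almost throughout. Its core runs from Ras proteins through the kinases Raf, Mek and Erk. Of 16 members 15 were detected (median percentile 61.4), with Nras at 5651, 3625 and 3633, the phosphatase gene Ptpn11 at percentile 95.5, and Ksr1 in part. Genes that ERK signalling is known to induce were brighter. Of 13 on the array 12 were detected, with a median percentile of 88.7, and 6 lay at or above percentile 90. Egr1, an immediate-early transcription factor, gave 10596, 7613 and 7022 (13.03 ± 0.07, SD, n = 3), and the ERK phosphatase gene Dusp6 gave 7808, 4139 and 4172. Ier3, another early-response gene, gave 10981, 7380.5 and 7718. Cyclin D1, which carries growth signals to the cell cycle, gave 9241, 5994 and 5747 for its gene Ccnd1, and Myc gave 396, 453 and 515. The feedback inhibitor gene Spry2 was not detected (53.3, 48 and 50.5).

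Receptors and ligands were detected unevenly, in 61.1% and 81.0% of cases, against 43.8% of all genes. Of 18 receptor tyrosine kinase genes 11 were detected, with Axl brightest, the collagen receptor gene Ddr1 at percentile 87.8, Egfr at 641, 404 and 354, Erbb2 at 410.5, 323 and 326 and Met at 309.9, 307 and 297. Erbb3, Erbb4, Fgfr3, Mst1r and Ret were not detected. Of 21 ligand genes 17 were detected, but their median percentile was 36.0. The angiogenic factor gene Vegfa (3971, 2170.3 and 2378) and Pdgfb (2433, 1831 and 1722) were the brightest. The EGF receptor ligand genes Hbegf, Btc and Areg lay at percentiles 80.2, 74.5 and 73.4, and Egf, Ihh and Igf2 at or below 1.1. No probe of Hgf or Shh was detected.

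Tumour suppressors of pancreatic carcinoma were detected in 20 of 21 cases. The receptor gene Tgfbr2 gave 4071, 2784 and 3034 and Smad3, which carries TGF-beta signals to the nucleus, gave 3421, 1992 and 2026. Cdkn2a, whose products restrain the cell cycle and p53 degradation, gave 1388, 683 and 726 (9.75 ± 0.27, SD, n = 3), and its neighbour Cdkn2b gave 1094, 641 and 683. On both, replicate 1 was the highest plate in deposited signal. Rb1 and Arid1a lay at percentiles 52.2 and 35.4, Rnf43 was not detected, and no name on the array matched Smad4. Of 25 p53 target genes 21 were detected (median percentile 55.9). The stress gene Gadd45a gave 3389, 2479 and 2843, Mdm2, whose product degrades p53, gave 1099, 892 and 1028, and the cell cycle inhibitor gene Cdkn1a gave 438, 266 and 313.

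Homologous recombination and Fanconi anaemia genes were detected but dim. Of 26 genes 24 were detected, a share of 92.3%, yet their median percentile was 25 and none lay at or above percentile 90. Bard1, the partner of Brca1, was at percentile 4.5 (71, 67.9 and 69), Palb2 at 28.3 and Brca2 at 38.1 (217, 194 and 194). The damage response genes Parp1 (1715, 1066 and 1034) and Trp53bp1 (percentile 76.8) were the brightest of the list. Nbn and Rbbp8 were not detected on any plate.

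Cell cycle genes were detected in 30 of 34 cases, with a median percentile of 70.3. Of the D-type cyclin genes, Ccnd1 gave the signals above, Ccnd2 gave 2989, 4175 and 4168 and Ccnd3 gave 2516, 1751 and 1628, and their kinase gene Cdk4 gave 2987, 2349 and 2634. Ccnd2 differed between plates, with a difference of -1.09 between replicate 1 and the mean of the others on the normalised log2 scale. Genes of replication and mitosis were also detected, with Mcm6 at percentile 90.5, Cdk1 at 80.5, Ccnb1 at 79, Top2a at 77.9 and the proliferation marker Mki67 at 53.9. Plk1, Ccna2, Ccnb2 and Bub1, also genes of dividing cells, had no detected probe. Among 19 survival and apoptosis genes 17 were detected, led by the anti-apoptotic gene Mcl1 at 5272, 2949 and 2859.

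The calcium-binding list was bright, and the matrix and adhesion lists were less so. Of 24 S100, annexin and galectin genes 22 were detected, with a median percentile of 91.1 and 12 at or above percentile 90. Beside S100a11, the membrane-binding annexin genes Anxa2 and Anxa3 gave 20878, 13777 and 14056 for Anxa2 and 19760.1, 12994 and 13725 for Anxa3, and the galectin gene Lgals1 gave 19631, 16044 and 14372. S100a9 was not detected. Of 24 integrin, laminin and basement membrane genes 23 were detected (median percentile 74.6), among them the tetraspanin gene Cd151, the type IV collagen genes Col4a1 (4487, 3362 and 3463) and Col4a2 and the integrin gene Itga3 (4573, 2653 and 2468). Of 22 protease and inhibitor genes 16 were detected (median percentile 63.9). The metalloprotease inhibitor gene Timp2 gave 7345, 6907 and 7642 and the membrane metalloprotease gene Mmp14 gave 3222, 2313 and 2605. Of 25 chemokine and cytokine genes 14 were detected (56.0%), against 43.8% of all genes and 10365 of 19955 genes with a current symbol. The 14 detected genes were not bright as a list, with a median percentile of 47.9. They were led by Il33 (1647, 1064 and 1074) and Ccl5 (1721, 844 and 931), and Il1b, Tnf and Csf3 were not detected.

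**Figure D2:**
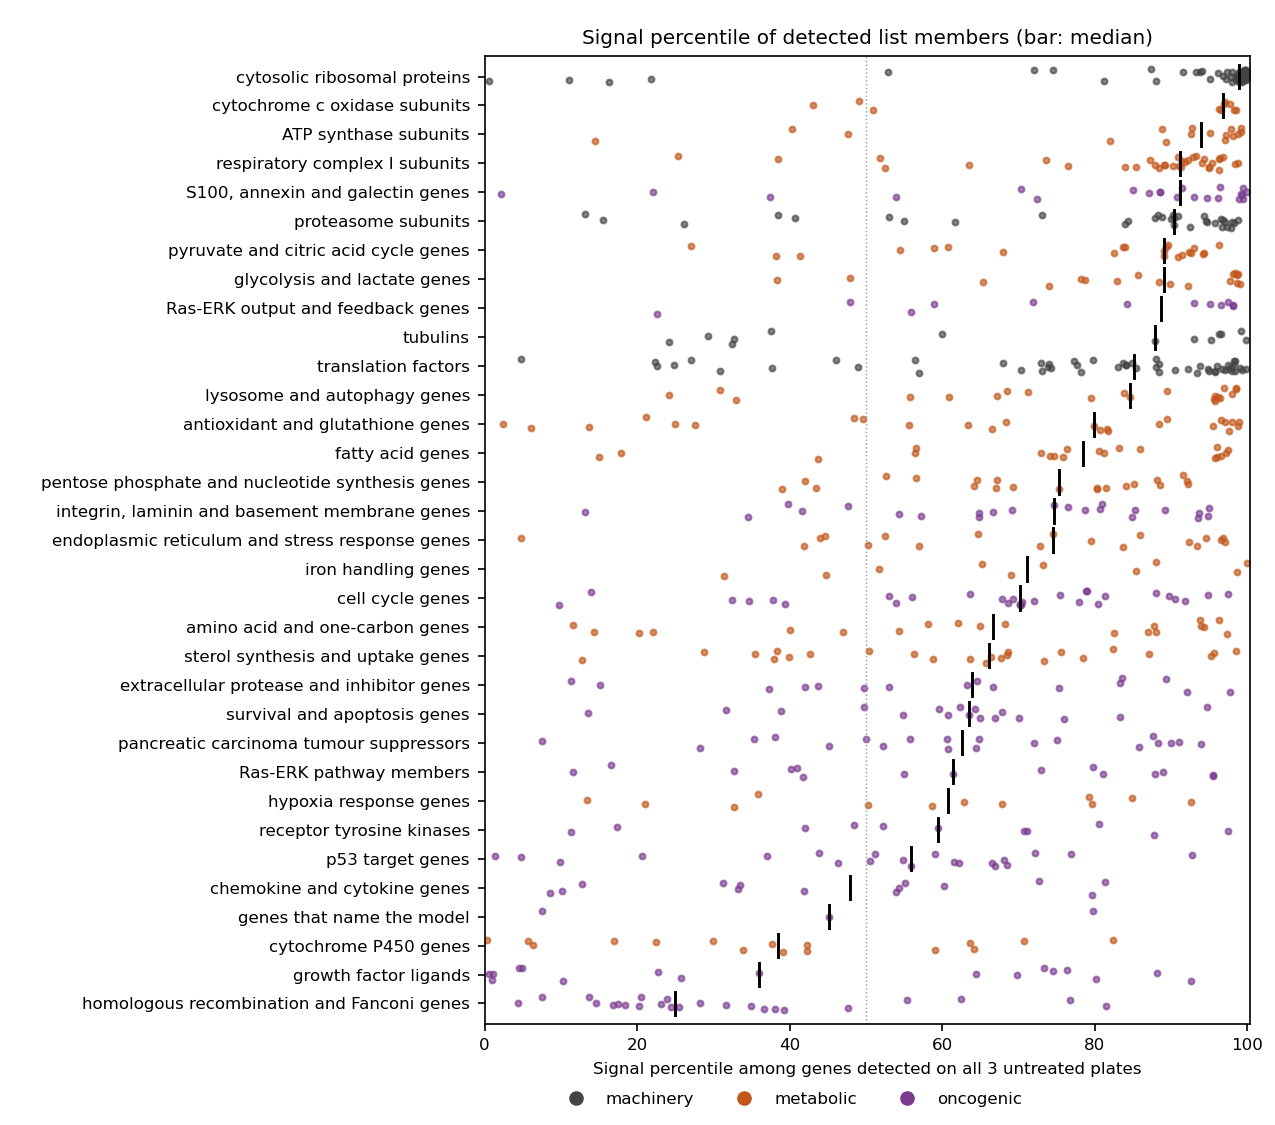
Signal percentile (horizontal, 0 to 100, among the 12666 genes detected on all 3 untreated plates) of the detected members of each machinery, metabolic and oncogenic list (1 point per gene, black bar for the median, vertical scatter for legibility). The lists run from ribosomal proteins, with a median of 98.9, to homologous recombination and Fanconi genes, with a median of 25.

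Genes of energy metabolism were among the brightest of all. Of 20 glycolysis and lactate genes 18 were detected, with a median percentile of 89.1 and 8 at or above percentile 90. Pyruvate kinase, the last enzyme of glycolysis, gave 13926, 12248 and 12827 for its gene Pkm (13.67 ± 0.18, SD, n = 3). Lactate dehydrogenase gave 11586, 10057 and 9997 for Ldha (13.37 ± 0.18, SD, n = 3), and Eno1 gave 12269, 11550.0 and 11695. The glucose transporter gene Slc2a1 lay at percentile 85.7, and the phosphofructokinase genes Pfkl and Pfkm at 89.8 and 88.4. Pfkfb3 and the monocarboxylate transporter gene Slc16a1 were detected in part, and no name on the array matched Hk2.

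Mitochondrial genes were as bright. Of 24 pyruvate and citric acid cycle genes 22 were detected, also with a median percentile of 89.1, led by the succinyl-CoA ligase gene Suclg1 at 6959, 4249 and 4108 and the pyruvate dehydrogenase gene Pdha1 at 4103, 3319 and 3261. Citrate synthase, which opens the cycle, gave 2340.4, 1974 and 2072 for Cs. Of 35 complex I subunit genes 34 were detected (median percentile 91.2), of 16 cytochrome c oxidase genes 10 (96.8) and of 16 ATP synthase genes all 16 (93.9). Atp5b, a catalytic subunit of ATP synthase, gave 18208, 12948 and 12151 (13.80 ± 0.07, SD, n = 3). The equal medians of glycolysis and citric acid cycle genes are of probe signals and do not compare the fluxes.

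Biosynthetic lists were detected completely or in large part. All 21 pentose phosphate and nucleotide synthesis genes were detected (median percentile 75.4), with the transketolase gene Tkt at 3739, 2103 and 2394 and G6pdx, the entry enzyme, at percentile 81.5. All 24 sterol genes were detected (66.1). Fdps, a farnesyl diphosphate synthase gene, gave 11086, 9294 and 9338, and Sqle gave 4454, 4234 and 4356. Of 25 fatty acid genes 20 were detected (78.5), led by the ATP-citrate lyase gene Acly at 9070.5, 6104 and 5726, with the desaturase gene Scd1 at 6632, 3893 and 3812. Fatty acid synthase itself was dim, Fasn lying at percentile 15.1, and no probe of Acaca was detected. Of 24 amino acid and one-carbon genes 20 were detected, with the asparagine synthetase gene Asns at 6685, 4241 and 4241 and the serine synthesis genes Psat1 and Phgdh at percentiles 94.4 and 87.

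Stress and turnover genes completed the metabolic lists. All 25 antioxidant genes were detected (median percentile 80.0). The peroxiredoxin gene Prdx1 gave 15769, 10759.8 and 11231 (13.62 ± 0.01, SD, n = 3) and the glutathione peroxidase gene Gpx4 gave 8334, 6438 and 6508. Single members of the list, such as Nqo1 (141, 124 and 137) and Txnrd1 (137, 99.8 and 87.4), were far dimmer. Of 22 lysosome and autophagy genes 21 were detected (84.7), with the cathepsin gene Ctsb at 12432, 8323 and 8437. Of 21 endoplasmic reticulum and stress genes 19 were detected (74.6), with the stress-response factor gene Atf4 at 8838, 4655 and 4451. Calr, a chaperone gene of the list, gave 1361, 3113 and 3892 with a normalised log2 difference of -1.95 between replicate 1 and the mean of the others. Of 16 iron genes 10 were detected, led by Fth1 and Ftl1, the ferritin genes, and Hamp, the gene of hepcidin, was not. Of 15 hypoxia genes 12 were detected (60.7), and Car9, a usual hypoxia marker, gave 139, 89.6 and 92.2. Of 83 cytochrome P450 genes, many of them liver enzymes, 16 (19.3%) were detected, the brightest being the sterol synthesis gene Cyp51.

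Families that are restricted to other tissues set the level of detection among genes that are normally off. Of 1087 olfactory receptor genes 16 (1.47%) were detected on all 3 plates, all dim, the brightest being Olfr802 at 93.1, 79.2 and 81. At a detection p under 0.01 the count was 2. Of 149 vomeronasal receptor genes 1 was detected (0.671%), and of 40 beta-defensin genes 1 (2.5%). Counts of a few dim members in other lists are therefore read against such shares at the same threshold.

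Germ cell genes were mostly not detected. Of 35 on the array 4 were detected on all 3 plates (11.4%), 3 in part and 28 on none. Undetected members include Dazl, an RNA-binding protein gene of germ cells (54.5, 53.3 and 52.9), Taf7l (54.5, 44.1 and 46.3), the germ cell helicase gene Ddx4, the meiotic genes Sycp1, Sycp2 and Sycp3 and the protamine gene Prm1. The 4 detected members were dim. The homeobox gene Rhox5, active in testis and placenta, gave 198, 100.4 and 105 (6.52 ± 0.57, SD, n = 3), so that replicate 1 was 0.98 higher than the mean of the others on the normalised log2 scale. Brdt, a bromodomain gene of spermatogenesis, gave 105, 102 and 102, and the piRNA pathway genes Tdrd1 and Asz1 gave 71.4, 60.0 and 63.9 for Tdrd1 and 70.9, 60.3 and 58.4 for Asz1. At a detection p under 0.01 the count was 2. The window of Dazl (chr17:50293571-50293870, minus strand) is shown as that of an undetected germ cell gene with many CG, 28.
Dazl: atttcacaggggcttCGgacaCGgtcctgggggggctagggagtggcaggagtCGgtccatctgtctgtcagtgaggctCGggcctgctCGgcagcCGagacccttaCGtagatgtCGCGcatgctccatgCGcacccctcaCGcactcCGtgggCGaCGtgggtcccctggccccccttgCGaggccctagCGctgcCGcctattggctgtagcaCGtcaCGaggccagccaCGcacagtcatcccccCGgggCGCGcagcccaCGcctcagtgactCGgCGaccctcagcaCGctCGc

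Placental and Hox genes gave the contrast between few bright and few dim exceptions. Of 35 placental prolactin and pregnancy-specific glycoprotein genes 3 were detected (8.57%). They were not dim. Psg23 gave 1110.4, 742 and 796 (9.73 ± 0.03, SD, n = 3), Prl2c2 gave 972, 622 and 621 and Prl2c3 gave 698, 289.6 and 344, at percentiles 74.0, 70.2 and 58.3, and probes of such close relatives can bind each other's transcripts. Of 39 Hox genes 4 were detected on all 3 plates and 7 in part, and the brightest, Hoxb7, gave 114, 72.8 and 81.7. The Hox count was 1 at a detection p under 0.01 and 7 without replicate 2.

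Immune genes were detected over a wide range of signal. Of 22 interferon-stimulated genes 16 were detected (median percentile 55.3). Irf1, an interferon-induced transcription factor, gave 1719, 932 and 913, Ifit3 gave 897, 599 and 651 and Usp18 gave 969, 532 and 577. Ifit1, Mx1 and Oas1a were not detected. All 11 genes of MHC class I presentation were detected. The light chain gene of class I molecules, B2m, gave 13516, 10067 and 9789.6 (13.43 ± 0.05, SD, n = 3), and the heavy chain genes H2-D1 and H2-K1 gave 3551, 2829.9 and 2684 for H2-D1 and 843, 378 and 392 for H2-K1. The peptide transporter gene Tap1 (74.4, 70.3 and 76.7) and the class I transactivator gene Nlrc5 (102, 66 and 72) lay near the limit of detection. Of 7 MHC class II genes 2 dim ones were detected, H2-DMa and H2-DMb1, while Cd74 (50.7, 48.9 and 48.4), Ciita and the class II chain genes H2-Aa and H2-Ab1 were not.

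Of 18 genes that write, read or erase DNA methylation 12 were detected (66.7%, against 43.8% of all genes). Dnmt1, the maintenance methyltransferase gene, gave 604, 325 and 372 (8.59 ± 0.25, SD, n = 3), and its recruiting factor gene Uhrf1 gave 1893, 946 and 1019.5. Dnmt3b, a gene of de novo methylation, was dimmer at 179.8, 113 and 116. No probe of Dnmt3a (52.1, 48.4 and 46.3) or of its cofactor gene Dnmt3l was detected, and among the genes of the demethylating dioxygenases Tet2 gave 1021, 438 and 462 while Tet1 and Tet3 were not detected. Of 19 imprinted genes 13 were detected (68.4%). Impact gave 2142, 1579.7 and 1752, the non-coding RNA gene Meg3 gave 1208, 499 and 483, and H19, Dlk1 and Igf2 lay at percentiles 8.2, 1.2 and 0.6. Of 16 regulatory peptide genes 5 were detected (31.2%, below the share of all genes). They were Npy at 480.5, 276 and 275 and Vip at 252, 152 and 151, then Calca, Penk and Sct at or below percentile 12.6.

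**Figure D3:**
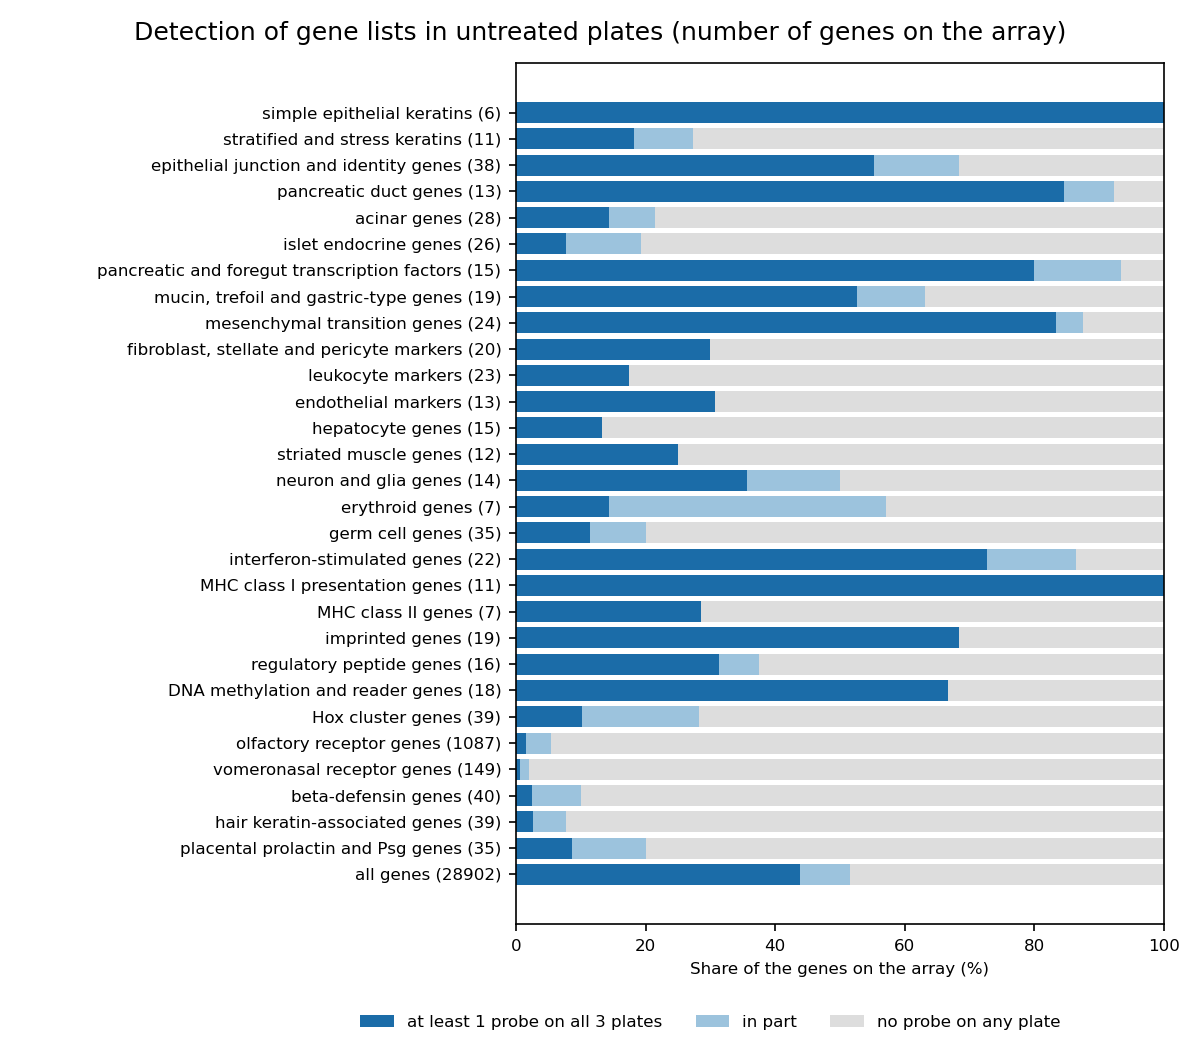
Share of the genes on the array (horizontal, %) with at least 1 probe detected on all 3 untreated plates (dark), in part (light) or on none (grey), for lineage, other-cell and silent-gene lists, with the number of genes on the array in brackets. Simple keratins and MHC class I genes are detected completely, against 43.8% of all genes and 1.47% of olfactory receptor genes.

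Promoters of detected genes held more CG. Among 13000 genes with a single promoter window in the table, the median number of CG in the window was 22 for 6588 genes detected on all 3 plates, 13 for 799 detected in part and 5 for 5613 detected on none. At least 15 CG were present in 74.5%, 44.6% and 23.7% of them, against 50.7% of all 13000. Without olfactory and vomeronasal receptor genes the share in the undetected class was 28.8%. Among detected genes the share of windows with at least 15 CG went from 58.9% at signal percentiles up to 25 to 74.5% between 25 and 50 and 80.6% above 90. The motif TATAAA on either strand was found in 7.29%, 12.8% and 20.2% of the 3 classes, against 13.2% of all windows. In the undetected class without olfactory and vomeronasal receptor genes it was found in 15.8%. Among detected genes the motif did not fall steadily with signal. It was found in 70 of 1105 windows at percentiles 75 to 90 and in 75 of 682 above 90. These shares are descriptions of the sequence, and methylation was not measured.

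The printed windows show the exceptions. Krt8 was among the brightest genes with 6 CG and TATAAA in its window, while Dazl and Ptf1a, with 28 and 23 CG, were not detected. Of 21 germ cell genes that were detected on no plate and had a single window, 8 (38.1%) held at least 15 CG, against 23.7% of all genes detected on no plate. Among the other undetected members with a single window, 9 of 16 Hox genes (56.2%) and 3 of 5 imprinted genes (60.0%) held as many, and 0 of 862 olfactory receptor genes did.

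**Figure D4:**
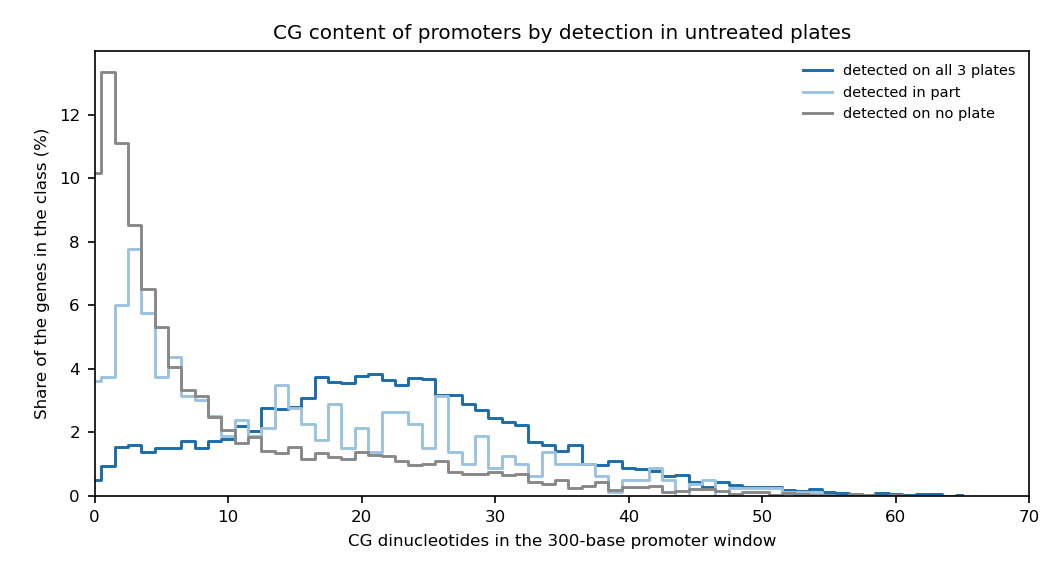
Share of genes (vertical, %) by the number of CG dinucleotides in the 300-base promoter window (horizontal), for 6588 genes detected on all 3 untreated plates, 799 detected in part and 5613 detected on none. Genes detected on none crowd at few CG, with a median of 5, and detected genes spread around a median of 22.

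The plates differed most in genes that were low on replicate 1. Over all detected genes the SD of normalised log2 signal had a median of 0.18 and a 95th percentile of 0.47. The 10 genes with the largest range over the plates (2.43 to 3.28 on the log2 scale) were all lowest on replicate 1. Spred2, an inhibitor of Ras-ERK signalling, gave 86, 364 and 449, the chromatin gene Baz2a 79.2, 268 and 342, the transcription factor gene Bach1 101, 459 and 411 and Itga2, an integrin gene, 304, 1226 and 1197. Prrc2c, Kdm5a, Ptbp2, Chd1, Lpp and 2900060B14Rik completed the 10. Against the mean of the other plates, 141 genes with a current symbol were at least 2-fold lower and 40 at least 2-fold higher on replicate 1, out of 10365.

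Long genes were more frequent among those low on replicate 1. The median genomic length was 56536 bases for the 141 lower genes, 18932 for the 40 higher and 22467 for all 10365, by the gene spans of RefSeq (GRCm38.p6). With the genes split by genomic length into 4 nearly equal sets, from short to long, 12, 24, 29 and 76 genes were at least 2-fold lower on replicate 1, and 12, 11, 9 and 8 were at least 2-fold higher. Genomic length moved with the difference between the plates, and its part in it was not tested.

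**Figure D5:**
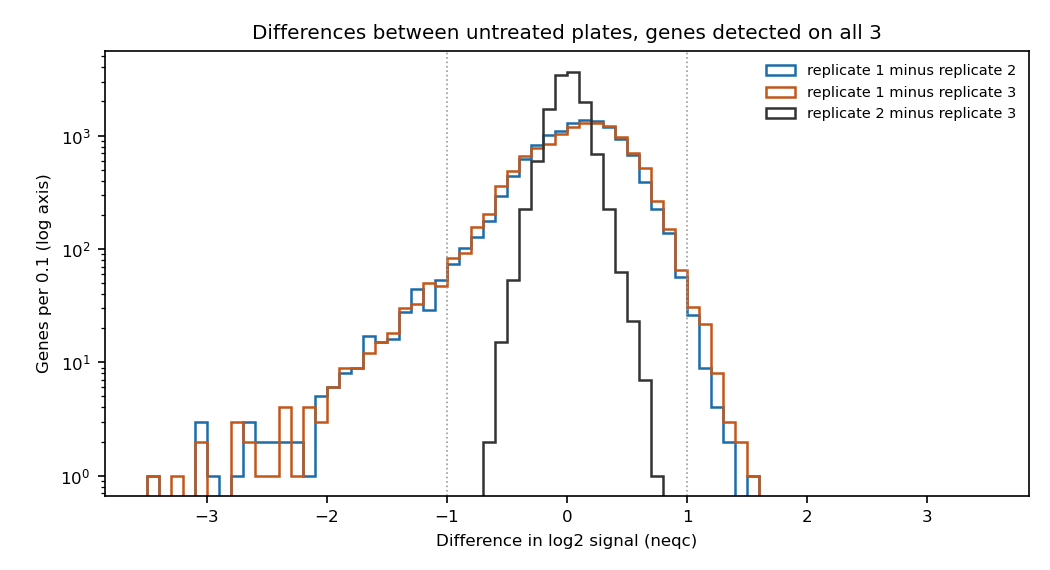
Differences in normalised log2 signal between pairs of untreated plates (horizontal) against the number of genes per step of 0.1 (vertical, log axis), over the 12666 genes detected on all 3 plates, with dotted lines at 2-fold. The curves with replicate 1 are wide and have a long tail of genes low on that plate, and the curve of replicates 2 and 3 stays within the dotted lines.

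Gene lists shifted with that plate to different extents. The median difference of replicate 1 from the mean of the others was 0.11 over all detected genes, -0.29 for mesenchymal transition genes, -0.28 for glycolysis genes and -0.28 for pancreatic and foregut transcription factors. It was 0.36 for chemokine and for MHC class I genes, and 0.44 for regulatory peptide genes. For the 6 detected markers of fibroblasts, stellate cells and pericytes it was 0.47. Of these 6, which were mostly dim (median percentile 18.8), 5 were higher on replicate 1, as were 7711 of all 12666 detected genes. The 2 detected stratified keratins had a median difference of 0.49, and leukocyte and endothelial markers 0.17 and 0.1. The part of other cell types in the difference between plates was not tested. Replicates 2 and 3 differed by a median of 0.01 over all detected genes.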

How the data were processed

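Illumina bead arrays of 3 untreated plates were used. Per the file headers, the deposited table gives for each probe and array a mean bead intensity, a standard error of the beads, a bead count and a detection p-value, without normalization. The scanner software and the basis of the detection p-value are not given in the sources used here. A second deposited table of intensity values (6 columns) was not used, since its identifiers are not paired with gene names. Median bead count was 44 per probe and array. The number of arrays limits the precision.

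Names on the array (30854) were matched to RefSeq symbols (GRCm38.p6): 16223 by symbol, 5684 by a synonym of a single gene, and 8947 kept the array name. A gene counted as detected when 1 probe had a detection p under 0.05 on all 3 plates, and its brightest such probe stood for it, or its brightest probe where none qualified. Genes were ranked by mean deposited intensity. Normalised log2 values came from neqc in limma 3.58.1 (R 4.3.3), applied to the 3 deposited arrays with an offset of 16, and were tested on simulated data. No groups were compared and no test was made. Promoter windows and gene spans are from RefSeq.

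The lists and genes were chosen with earlier results of these data known. The rule for named genes took the 25 brightest, the 4 to 6 brightest members of each list, undetected lineage members, 19 genes of interest and the 10 genes with the largest range. Other list members were named after their values were seen. Some genes that the lists count are not reported here by name. Alternatives were a detection p under 0.01, leaving out each plate, the mean over probes, other ranks, and other background and scaling settings.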

Additional observations from a re-analysis of the deposited data

How the results depend on the processing

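The number of genes detected on all 3 plates was 11175 at a detection p under 0.01, 13343 with the names of the array, and 12845 to 13409 when 1 plate was left out, the most without replicate 1. Of 62 lists, 51 kept their count within 1.5 times at a detection p under 0.01. The others fell to 2 acinar, 1 islet, 0 striated muscle, 0 erythroid, 2 germ cell, 1 MHC class II, 3 regulatory peptide, 1 Hox, 2 olfactory receptor, 0 vomeronasal receptor and 0 beta-defensin genes. With each plate left out in turn, the count ranged from 1 to 3 for erythroid, 4 to 7 for Hox, 1 to 2 for vomeronasal receptor, 1 to 2 for hair keratin-associated and 3 to 5 for placental genes. Without replicate 1 there were 3 erythroid, 2 vomeronasal receptor, 2 hair keratin-associated and 5 placental genes, and without replicate 2 there were 2 erythroid, 7 Hox and 2 vomeronasal receptor genes. The cause was not tested. Of the 25 brightest genes, 25 were shared with a ranking by normalised log2 signal or by within-plate ranks, 23 when any plate was left out and 20 with the mean over probes. With the mean over probes, signal percentiles of the brightest genes and genes of interest moved by at least their SD over plates in 15 cases and by less in 26. Cdh1 went from 80.2 to 72.0 and Egfr from 59.5 to 47.6, while Pdx1 rose from 73.9 to 78.4 and Dnmt1 from 57.7 to 62.6. Genes at least 2-fold apart numbered 151 (replicates 1 and 2) and 162 (replicates 1 and 3) with an offset of 50, which shrinks low signals by construction, and 178 (replicates 1 and 2) without background correction. No paired analysis was possible because a single group of plates was described and no groups were compared. Dim genes near the limit of detection are the least certain.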
